A study of Mus musculus with 3 samples.

Results

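The Hox genes form 4 clusters in the mouse genome, and 5-hydroxymethylcytosine (5hmC) over these clusters is described here in cerebellum. The members are 38 listed protein-coding genes with symbols that begin with Hoxa, Hoxb, Hoxc or Hoxd followed by a number, out of 21676 protein-coding genes with a measured level. They were chosen by symbol from the RefSeq table of GRCm38.p6. No measured value entered this rule, but earlier results of these data were known when it was set. HoxA, on chromosome 6 from 52162417 to 52260880, holds 10 of the genes. HoxB, on chromosome 11 from 96194316 to 96368254, holds 10. HoxC, on chromosome 15 from 102921131 to 103036856, holds 9, and HoxD, on chromosome 2 from 74668225 to 74765142, holds 9.

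Genomic DNA of mouse cerebellum was profiled in 3 libraries, each the only one of its group: normal tissue by DDD-seq, tissue from chronic sleep deprivation by DDD-seq, and tissue with the treatment label control by ACE-seq. DDD-seq is double-stranded DNA deamination sequencing, and in both methods cytosines that resist a deaminase are read as 5hmC. The labels give all 3 libraries, the ACE-seq one included, the same protocol of glycosylation and deamination by SsdAcat. Strain, sex, age, genotype and the number of animals are not given in the sources used here, nor is the way in which sleep was deprived. The measurement is a deposited fraction for each 10 kb bin of the genome, multiplied by 100 and called the level in percent. The depth behind a value is unknown. Since no group was replicated, groups could not be tested against each other, and each error given is a scatter over bins.

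Hox proteins are homeodomain transcription factors that give cells their position along the head-to-tail axis. Genes at the 3′ end of a cluster (low paralog numbers) act early and towards the head, and genes at the 5′ end (high numbers) act late and towards the tail. The cerebellum arises from the most anterior hindbrain segment, in front of the anterior limit of Hox expression, where the clusters are textbook targets of Polycomb repression. 5hmC is made from 5-methylcytosine by TET enzymes, lies mainly at CG dinucleotides, and is abundant over the bodies of many genes expressed in neurons.

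The clusters also hold microRNA genes, and their sequences are shown because the 6 genes are further products of the clusters. The miR-10 and miR-196 families are known to target Hox mRNAs. Mature sequences are from RefSeq (GRCm38.p6), 5′ to 3′, with the seed (bases 2 to 8) in capitals.
mmu-miR-10a-5p: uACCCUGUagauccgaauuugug
mmu-miR-10b-5p: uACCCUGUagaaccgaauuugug
mmu-miR-196a-5p: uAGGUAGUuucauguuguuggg
mmu-miR-196b-5p: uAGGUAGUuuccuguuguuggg
mmu-miR-615-3p: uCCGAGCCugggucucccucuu
Both miR-10 members share the seed ACCCUGU and lie next to paralog 4 genes, Mir10a in HoxB (chr11:96317186-96317208, + strand) and Mir10b in HoxD (chr2:74726074-74726096, + strand). The miR-196 members share the seed AGGUAGU. miR-196a comes from Mir196a-1 in HoxB (chr11:96265187-96265208, + strand) and Mir196a-2 in HoxC (chr15:102973365-102973386, + strand), and miR-196b from Mir196b in HoxA (chr6:52230129-52230150, − strand). Mir615 (chr15:103014969-103014990, + strand) lies within HoxC.

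Promoters were examined for CG dinucleotides, the main site of 5hmC. RefSeq promoter sequences were matched for 22 of the 38 genes, with 24 start sites. In the 250 bases before the start site the number of CG ranged from 2 to 35 with a median of 12.5, and 15 of the 24 promoters (62.5%) held at least 10. Over 21263 promoters of protein-coding genes the median was 10, and 50.1% held at least 10. CG reads the same on both strands. The promoters with the fewest and the most are shown, 5′ to 3′ on the strand of the gene, with each CG in capitals. The first lies at chr2:74679308-74679557 (+ strand) and the second at chr6:52260881-52261130 (− strand), both in GRCm38.p6.
Hoxd11: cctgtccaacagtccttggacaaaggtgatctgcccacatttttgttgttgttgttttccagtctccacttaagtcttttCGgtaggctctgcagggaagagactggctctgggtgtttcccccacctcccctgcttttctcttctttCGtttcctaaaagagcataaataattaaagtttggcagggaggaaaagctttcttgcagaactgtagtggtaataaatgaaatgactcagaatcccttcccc
Hoxa13: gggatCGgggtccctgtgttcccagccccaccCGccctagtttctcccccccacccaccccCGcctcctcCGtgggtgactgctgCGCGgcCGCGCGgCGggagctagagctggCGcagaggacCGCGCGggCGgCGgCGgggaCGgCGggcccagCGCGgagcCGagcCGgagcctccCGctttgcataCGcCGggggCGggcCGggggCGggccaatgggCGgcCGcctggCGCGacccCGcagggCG
The 10 kb bins are much longer than these windows, so the levels below do not resolve promoters. Hoxa13, with 35 CG in this window, had a gene level of 1.04% for the DDD-seq control, 0.944% for the sleep-deprived sample and 1.21% in the ACE-seq control. Hoxd11, with 2 CG here and 20 in the window of a second start site, had 0.904%, 1.11% and 0.968% in the same order. Hoxa13 was thus the higher of the pair in both control libraries and the lower in the sleep-deprived sample.

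The level was low and even across all 4 clusters. It includes any unconverted cytosine, since unmodified control DNA was not analysed here. The clusters covered 52 bins, and the mean level over them was 1.07% ± 0.03 (SE over 52 bins) for the DDD-seq control, 1.02% ± 0.02 for the sleep-deprived sample and 0.990% ± 0.035 in the ACE-seq control. Over all autosomal bins the means were 1.56%, 1.57% and 1.52%. No cluster bin was listed at 0, and the highest was 1.91% for the DDD-seq control, 1.44% for the sleep-deprived sample and 1.71% in the ACE-seq control. A level below 1.5% in all 3 libraries was found for 48 of 52 cluster bins (92.3%), against 35.9% of autosomal bins. Levels below 1% were found in 18 cluster bins (34.6%) by DDD-seq of control tissue, 24 (46.2%) after sleep deprivation and 28 (53.8%) by ACE-seq, against 20.5%, 17.9% and 23.8% of autosomal bins. Only 4 of 52 (7.69%) were below 1% in all 3 libraries, against 3.42% of autosomal bins.

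HoxA bins in the DDD-seq control were among the most even. They ranged from 0.997% to 1.27%, with a mean of 1.11% ± 0.10 (SD over 11 bins). The sleep-deprived sample had 0.957% ± 0.153 and the ACE-seq control 1.07% ± 0.27, where the range reached 1.68%. HoxB had 1.09% ± 0.27, 1.02% ± 0.16 and 0.930% ± 0.258 (SD over 18 bins; DDD-seq control, sleep-deprived and ACE-seq control, an order kept below). HoxC had 1.04% ± 0.28, 0.975% ± 0.190 and 1.05% ± 0.30 (SD over 12 bins). HoxD had 1.05% ± 0.15, 1.11% ± 0.11 and 0.948% ± 0.134 (SD over 11 bins). The ranges of the bins overlapped between all 4 clusters in each library, and no cluster had the highest or the lowest mean in all 3 libraries.

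**Figure D1:**
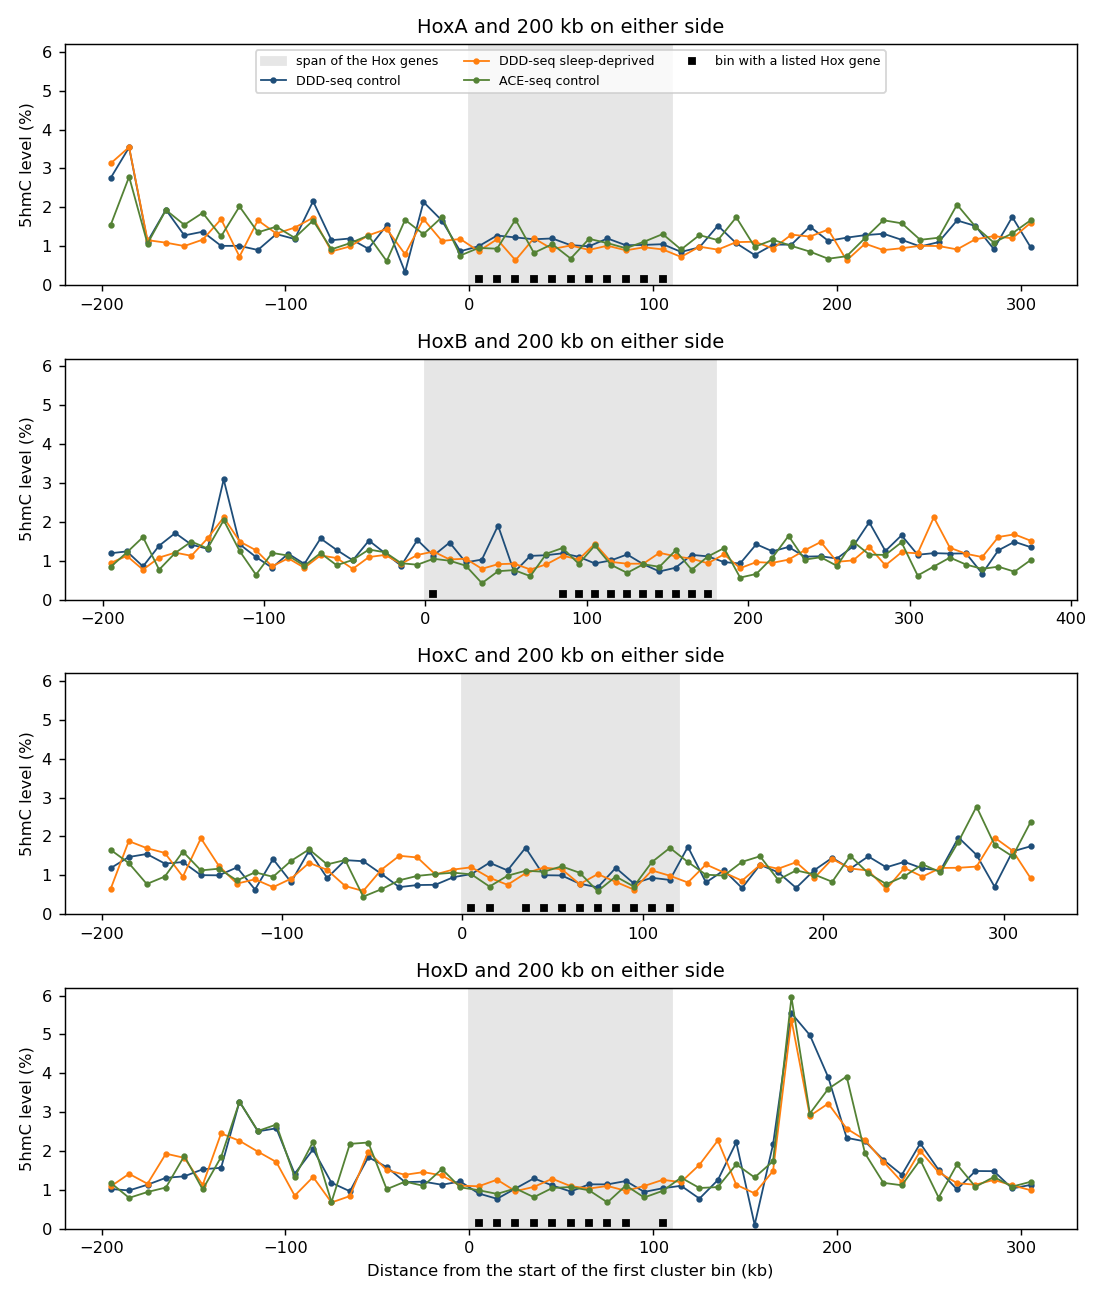
Level of 5hmC (%) in each 10 kb bin against the distance (kb) from the first bin of the HoxA, HoxB, HoxC and HoxD clusters, with 200 kb on either side; lines are the 3 libraries, the grey band spans the listed Hox genes and black squares mark bins with such a gene. Cluster bins stay between 0.423% and 1.91%, while the right flank of HoxD reaches 5.54%, 5.37% and 5.95% in the 3 libraries.

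The evenness of the clusters was set beside all windows of the same length, tiled without overlap over the autosomes. Windows of 11 bins had a median mean of 1.43%, 1.43% and 1.38% and a median SD over bins of 0.508, 0.466 and 0.509 points in the 3 libraries. The SD of HoxD, 0.152, 0.110 and 0.134 points, lay below the 5th percentile of those windows (0.245, 0.218 and 0.259) in each library. Over 4 clusters and 3 libraries, 9 of the 12 SDs were below the 5th percentile and all 12 below the 25th. The exceptions to the former were HoxC in the DDD-seq control and HoxA and HoxC in the ACE-seq control. For the mean level, 5 of 12 values were below the 5th percentile and 12 below the 25th. The windows were not matched for mean level, and whether the low SDs go with the low means was not tested. The number of cytosines and reads behind each bin is not in the table, so the counting error of a bin is unknown.

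Levels were higher beside the clusters than within them. Against the 40 bins of its flanks (200 kb on either side), HoxD was lower by 0.71 ± 0.18 points for the DDD-seq control (SE from the scatter over bins), 0.55 ± 0.14 in the sleep-deprived sample and 0.79 ± 0.17 in the ACE-seq control. HoxA was lower by 0.22 ± 0.09, 0.31 ± 0.10 and 0.28 ± 0.11 points. HoxB was lower by 0.20 ± 0.09, 0.17 ± 0.06 and 0.15 ± 0.08 points, and HoxC by 0.15 ± 0.10, 0.19 ± 0.08 and 0.19 ± 0.11 points. All 4 clusters were thus below their flanks in all 3 libraries, but by under 2 SE for HoxC in both controls and for HoxB in the ACE-seq control. Averaged over the 4 clusters the difference was -0.321 ± 0.132 points for the DDD-seq control, -0.305 ± 0.087 for the sleep-deprived sample and -0.354 ± 0.148 in the ACE-seq control (SE over 4 clusters). Without HoxD it was -0.190, -0.223 and -0.208 points. With flanks limited to bins that overlap a protein-coding gene it was -0.713, -0.558 and -0.736 points.

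**Figure D2:**
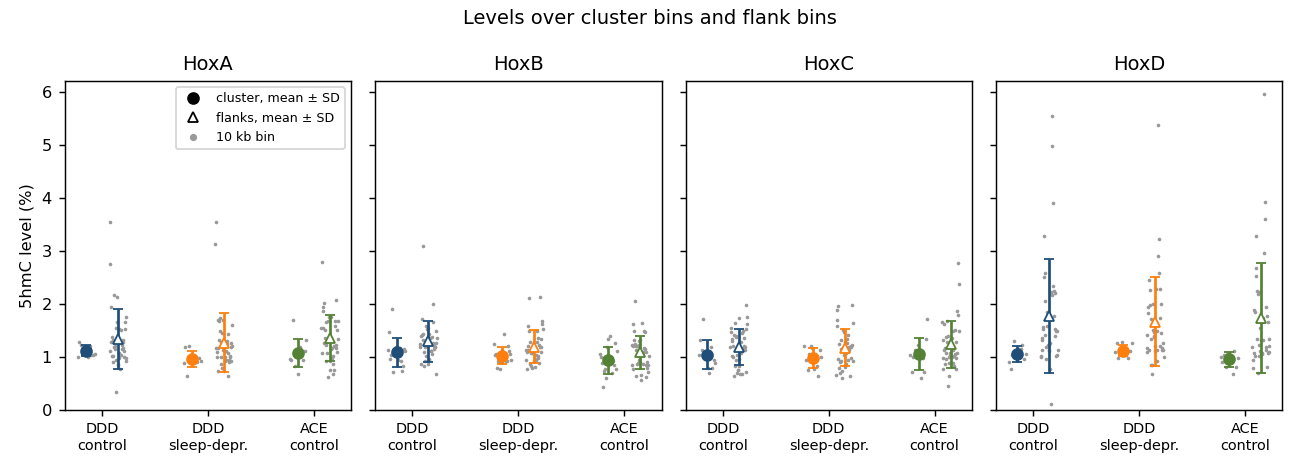
Level of 5hmC (%) in cluster bins (filled circles) and flank bins (open triangles) of each Hox cluster in the 3 libraries; symbols and bars are the mean ± SD over bins and grey dots are single 10 kb bins. Each cluster mean lies below its flank mean, and the gap is widest at HoxD.

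The first 50 kb outside the clusters had a lower mean than the bands farther out. The mean over the 40 bins of this band was 1.14%, 1.17% and 1.15% in the 3 libraries. From 50 to 100 kb it was 1.57%, 1.37% and 1.50%, with single bins up to 5.54%, 5.37% and 5.95%. From 100 to 150 kb it was 1.46%, 1.37% and 1.38%, and from 150 to 200 kb 1.40%, 1.38% and 1.38%. The medians of the first band were 1.12%, 1.13% and 1.08%, those of the second 1.19%, 1.17% and 1.18%, and those of the cluster bins 1.04%, 1.02% and 0.989%. By medians the first band was thus nearer to the second than to the clusters in both DDD-seq libraries.

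The highest bins of the second band lie in Mtx2. Mtx2, which encodes a protein of the mitochondrial import machinery and lies to the right of HoxD (chromosome 2, 74825812 to 74876748), had a level of 3.53%, 2.97% and 3.35% over 6 bins. Lnpk, which encodes an endoplasmic reticulum protein on the other side of HoxD, had 2.13%, 1.68% and 2.13% over 7 bins. Evx2, a homeobox gene next to Hoxd13, had 1.06%, 1.10% and 1.03%, and 1 of its 2 bins is shared with Hoxd13. At HoxA, Skap2, an adaptor protein gene, had 1.87%, 1.93% and 1.79% over 17 bins, and Evx1, the homeobox gene on the side of Hoxa13, had 0.773%, 1.11% and 0.984%. In the DDD-seq control, the highest neighbours of HoxB were Ube2z, a ubiquitin-conjugating enzyme gene, with 1.94%, 1.61% and 1.62%, and Snf8, an endosomal sorting gene, with 1.56%, 1.17% and 1.35%. The lowest on that side in the DDD-seq control were Calcoco2 with 1.12%, 0.968% and 1.10% and Igf2bp1 with 1.22%, 1.18% and 1.04%, and Skap1 on the other side had 1.24%, 1.32% and 1.2% over 30 bins. At HoxC, Hnrnpa1 had 1.70%, 1.08% and 1.89%, Cbx5 (a heterochromatin protein gene) 1.51%, 1.39% and 2.06%, Smug1 (a DNA repair glycosylase gene) 1.28%, 0.917% and 0.875%, and Calcoco1, the only neighbour on the left, 0.969%, 0.701% and 1.16%.

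Bins with Hox genes also had a lower mean than nearby bins without a protein-coding gene. The 43 cluster bins that overlap a listed Hox gene had means of 1.06% ± 0.19, 1.04% ± 0.16 and 1.03% ± 0.24 (SD over bins). The 103 flank bins without a protein-coding gene had 1.2% ± 0.36, 1.2% ± 0.34 and 1.21% ± 0.36, and the 57 flank bins with one had 1.74% ± 0.97, 1.53% ± 0.83 and 1.61% ± 0.96. Across the autosomes, bins with a protein-coding gene had higher means (1.76%, 1.76% and 1.71%) than bins without one (1.38%, 1.40% and 1.34%), the opposite order to that between Hox gene bins and the flank bins without a protein-coding gene. Autosomal bins that overlap at least 3 protein-coding genes, 623 in number, had means of 1.28%, 1.245% and 1.23%, between the Hox bins and the average bin. Inside HoxB, 7 bins between Hoxb13 and Hoxb9 hold no listed Hox gene. Their mean was 1.19%, 0.914% and 0.796%, against 1.02%, 1.09% and 1.02% in the other 11 HoxB bins. The mean of the gap was thus higher for the DDD-seq control and lower in the other libraries. In the DDD-seq control 1 gap bin reached 1.91%, and the medians were close, 1.12% in the gap and 1.10% in the other bins.

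Each Hox gene was then given the mean level of the bins it overlaps. Of the 38 genes, 33 overlap at most 2 bins, 20 a single bin, and 29 share a bin with at least one other member. Neighbouring genes are therefore not separate measurements: Hoxa5 and Hoxa6, for example, have the same bin and the same values. The median over the 38 genes was 1.04%, 1.02% and 1.0%, against 1.33%, 1.31% and 1.29% for all protein-coding genes and 1.21%, 1.2% and 1.18% for those of at most 2 bins. A level below 1.5% in all 3 libraries was found for 37 of 38 Hox genes (97.4%), against 55.3% of all protein-coding genes and 64.8% of those of at most 2 bins. With a limit of 1%, 3 of 38 genes (7.89%) were below in all 3 libraries, against 3.1% of all protein-coding genes and 5.44% of those of at most 2 bins. They were Hoxa2, Hoxc5 and Hoxc6, the last with 0.892%, 0.832% and 0.758% over 3 bins. In single libraries 13 (34.2%), 17 (44.7%) and 19 (50%) of the 38 genes were below 1%, against 13.8%, 12.6% and 17.2% of all protein-coding genes and 23.6%, 22.0% and 28.2% of those of at most 2 bins.

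The anterior genes, paralogs 1 to 3, pattern the hindbrain and upper neck and had medians of 1.11%, 1.03% and 0.964% over 7 genes. Hoxb2, active in the hindbrain, was the highest of them in the DDD-seq control with 1.15%, and had 1.05% in the sleep-deprived sample and 0.766% in the ACE-seq control. Hoxb3, which spans 5 bins, had 0.925%, 1.03% and 0.920%, the lowest of them in the DDD-seq control only. Hoxa2, whose anterior limit of expression is the closest of all Hox genes to the cerebellar primordium, had 0.999%, 0.872% and 0.955%. Hoxb1 and Hoxd1, the members at the 3′ ends of their clusters, had 1.11%, 0.936% and 1.11%, and 1.04%, 1.26% and 0.975%. The order of these genes changed from library to library.

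The central genes, paralogs 4 to 8, pattern the trunk and had medians of 1.03%, 0.971% and 1.05% over 15 genes. Hoxa4 was the highest in the DDD-seq control with 1.2%, and had 0.921% and 1.26% in the other libraries. Hoxa5 and Hoxa6 followed with 1.2%, 0.925% and 1.05% in their shared bin. Hoxc8, a gene of the thoracic region, had 0.691%, 1.03% and 0.593%, the lowest of all Hox genes in both control libraries but not in the sleep-deprived sample. Hoxc5 had 0.792%, 0.633% and 0.712%, low in each library, and its bin also holds Mir615. Hoxb6 had 0.970%, 1.2% and 1.14%.

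The posterior genes, paralogs 9 to 13, pattern the lumbar to caudal trunk and the limbs, and had medians of 1.04%, 1.08% and 1.02% over 16 genes. Hoxc11 was the highest Hox gene of all in the DDD-seq control with 1.71%, but had 1.05% and 1.12% in the other libraries. It is the only member above 1.5% in any library. Its neighbour Hoxc12 had 1.32%, 0.938% and 0.712%. Hoxd9 had 1.21%, 1.18% and 0.931%, Hoxd10 1.17%, 1.02% and 0.925%, Hoxb9 1.19%, 1.13% and 1.33%, and Hoxa9 0.997%, 0.904% and 1.19%. Hoxd12 had 0.771%, 1.26% and 0.898%, and was the lowest of this class in the DDD-seq control and the highest in the sleep-deprived sample.

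The paralog 13 genes close the 5′ ends of the clusters and act in the most caudal tissues and the distal limb. Hoxa13 had the values given with its promoter, Hoxb13 had 1.13%, 1.24% and 1.05%, Hoxc13 1.03%, 1.21% and 1.02%, and Hoxd13 0.839%, 1.18% and 0.944%. The medians of the 3 paralog classes spanned 0.0872, 0.114 and 0.0846 points in the 3 libraries, and their order differed between libraries. In the sleep-deprived sample the means of paralogs 7 to 13 (1.020% to 1.141%) were all above those of paralogs 2 to 6 (0.843% to 1.017%), and that of paralog 1 was 1.10%. The corresponding ranges overlapped in the DDD-seq control (0.984% to 1.21% and 1.0% to 1.08%), as they did by ACE-seq (0.805% to 1.15% and 0.860% to 1.07%). This division of the paralogs was chosen after the values were seen and was not tested.

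**Figure D3:**
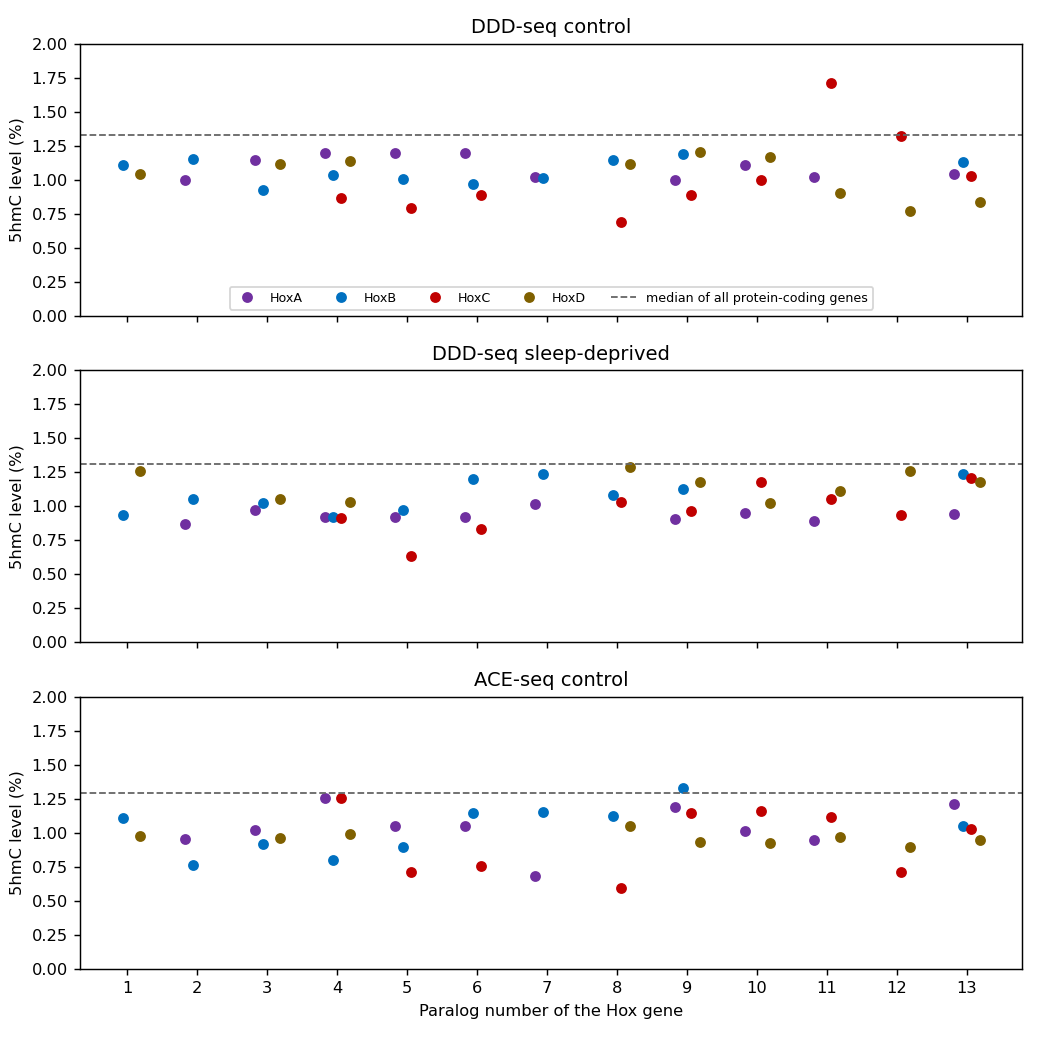
Gene-body level of 5hmC (%) of each of the 38 Hox genes against its paralog number, coloured by cluster, in the 3 libraries; the dashed line is the median of all protein-coding genes (1.33%, 1.31% and 1.29%). All points but Hoxc11 in the DDD-seq control lie below 1.5%.

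Bin-to-bin differences within the clusters did not recur between libraries. Over the 52 cluster bins, Pearson's r was -0.08 between the DDD-seq control and the sleep-deprived sample, -0.02 between the DDD-seq control and the ACE-seq control, and 0.12 between the latter libraries. Over the 160 flank bins the values were 0.74, 0.73 and 0.65, and over all autosomal bins 0.69, 0.63 and 0.67. Spearman's rho was -0.10, 0.01 and 0.14 in the clusters and 0.37, 0.38 and 0.21 in the flanks, lower in the flanks than Pearson's r. Bins are not replicates, neighbouring bins can share a level, and a narrow range lowers a correlation. The flanks of single clusters differed: at HoxC Pearson's r was -0.07, 0.34 and 0.07 for the same pairs, and at HoxD 0.83, 0.84 and 0.84.

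**Figure D4:**
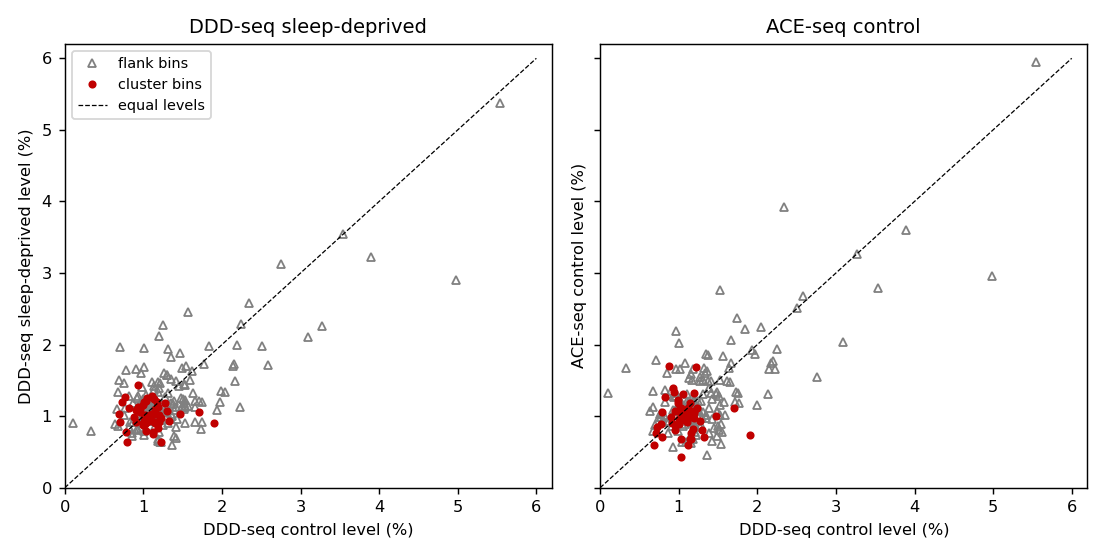
Level (%) in the DDD-seq control (horizontal axis) against the sleep-deprived sample and the ACE-seq control (vertical axes) for cluster bins (red circles) and flank bins (grey triangles); the dashed line marks equal levels. Cluster bins form a round cloud near 1%, whereas the highest flank bins are high in all libraries.

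The sleep-deprived sample was compared with the DDD-seq control to ask whether chronic sleep deprivation goes with a different level over Hox genes. Over the 52 cluster bins the mean difference, sleep-deprived minus control, was -0.058 ± 0.040 points (SE over bins), with 20 bins higher and 32 lower (61.5%). Over all autosomal bins it was 0.00433 points, with 49.4% of bins lower. The flanks had -0.072 ± 0.037 points. HoxA had -0.152 ± 0.050 points, with 10 of 11 bins lower. HoxB had -0.068 ± 0.082, HoxC -0.065 ± 0.090 and HoxD 0.061 ± 0.066 points. Over all autosomal windows of 11 bins the same difference had a 5th to 95th percentile range of -0.288 to 0.301 points, which includes both HoxA and HoxD, and the windows of 18 and 12 bins (-0.226 to 0.238 and -0.279 to 0.289) include HoxB and HoxC.

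Of the 38 genes, 14 were higher and 24 lower (63.2%) in the sleep-deprived sample, against 50.9% lower among all protein-coding genes. All 10 HoxA genes were among the lower ones, but they share 11 bins. A difference of at least 1.5-fold was reached by 1 gene upwards (2.63%) and 1 downwards (2.63%). The background was 4.34% upwards and 4.28% downwards over all protein-coding genes, and 8.02% and 8.23% over those of at most 2 bins. The shares of Hox genes were thus not above the background. The gene that was higher was Hoxd12 (0.771% in the control and 1.26% in the sleep-deprived sample), and the gene that was lower was Hoxc11 (1.71% and 1.05%). Both rest on a single bin, so neither difference has an error. The ACE-seq control had 0.898% at Hoxd12 and 1.12% at Hoxc11, nearer to the DDD-seq control for the former and to the sleep-deprived sample for the latter.

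The ACE-seq control was compared with the DDD-seq control over the same regions. With 1 library each, a difference of method cannot be told apart from one of sample, pooling or depth. Over the cluster bins the mean difference, ACE-seq minus DDD-seq, was -0.084 ± 0.047 points (SE over bins), with 19 bins higher and 33 lower (63.5%). Over all autosomal bins it was -0.045 points, with 53.3% of bins lower, and over the flanks -0.042 ± 0.039. The values by cluster were -0.039 ± 0.080 at HoxA, -0.158 ± 0.093 at HoxB, 0.00670 ± 0.117 at HoxC and -0.106 ± 0.062 at HoxD, all inside the 5th to 95th percentile range of windows of the same length. Both comparisons share the DDD-seq control.

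A 1.5-fold difference was reached by 0 genes upwards and 4 downwards (10.5%) in ACE-seq, against 4.37% and 5.93% of all protein-coding genes and 8.28% and 11.0% of those of at most 2 bins. The 4 genes were Hoxc12 (1.32% by DDD-seq and 0.712% by ACE-seq), Hoxc11 (1.71% and 1.12%), Hoxa7 (1.03% and 0.681%) and Hoxb2 (1.15% and 0.766%), each of a single bin. Their ratios of ACE-seq to DDD-seq were 0.538, 0.654, 0.664 and 0.665. When the libraries were scaled to the same autosomal median, 1 gene was past the limit downwards. The share of all protein-coding genes past it after scaling was not computed. Hoxc4, the 3′ end gene of HoxC, had 0.870%, 0.916% and 1.252%, and its difference of 0.382 ± 0.261 points (SE over 3 bins) was the largest upwards.

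**Figure D5:**
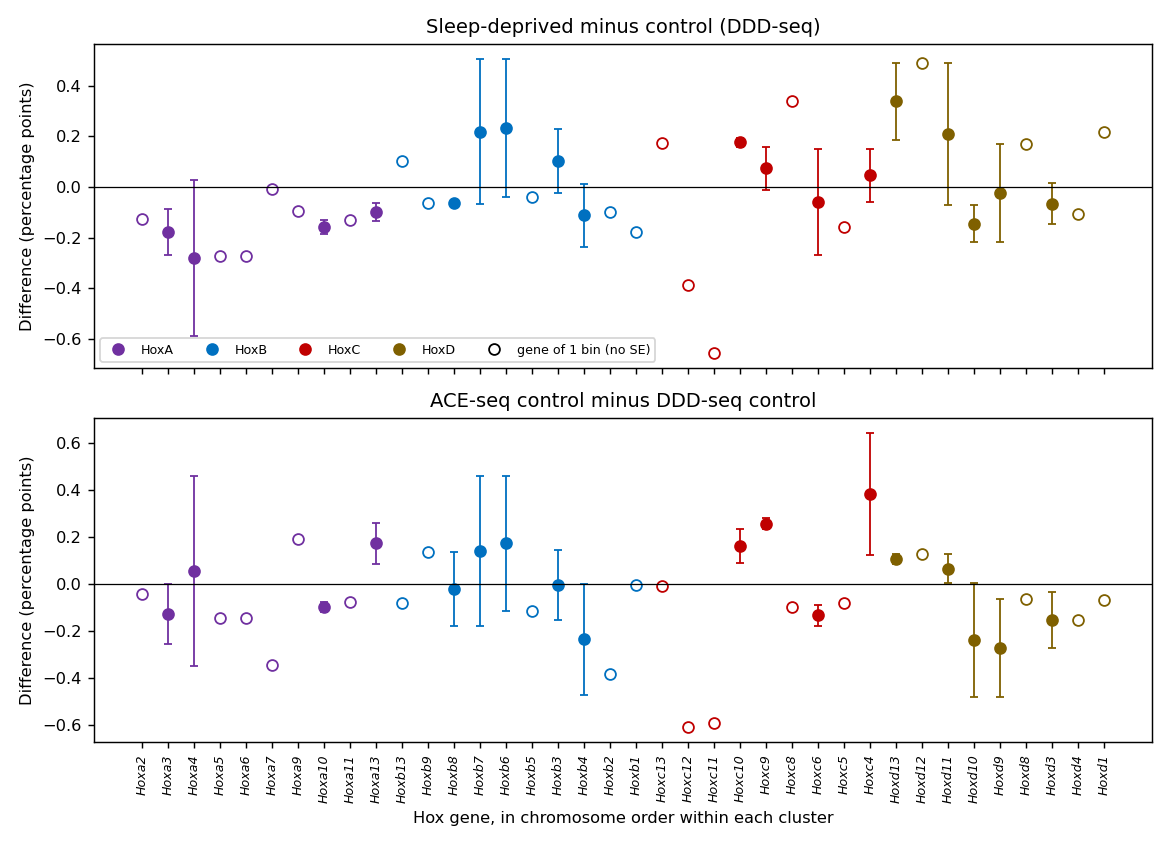
Difference in level (percentage points) for each of the 38 Hox genes, sleep-deprived minus control (top) and ACE-seq minus DDD-seq control (bottom), with bars of 1 SE over the bins of the gene; open circles are genes of 1 bin, which have no SE. Hoxc11 and Hoxc12 are lower in both panels, which share the DDD-seq control, and Hoxd12 has the largest value above 0 in the top panel.

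The 6 microRNA genes had the levels of their bins. Mir10a had 1.16%, 0.924% and 0.688% and Mir10b 1.14%, 1.04% and 0.989%. Mir196a-1 had 1.14%, 0.908% and 1.18%, Mir196a-2 0.997%, 1.16% and 1.23%, and Mir196b 1.2%, 1.01% and 1.08%. Mir615 had 0.792%, 0.633% and 0.712%, the lowest of the 6 in both DDD-seq libraries, and Mir10a was the lowest by ACE-seq. For 5 of the 6 the bin is also one of a Hox gene, so these values are no separate measurements, and Mir196a-1 is the exception. Both miR-10 genes were highest in the DDD-seq control and lowest in the ACE-seq control, whereas the 3 miR-196 genes had 3 different orders of the libraries.

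A chosen list of homeobox genes outside the clusters lay, by its median, between the Hox genes and short genes at large. The list leaves out the TALE genes, given below with higher medians. It includes Evx1 and Evx2, which lie beside HoxA and HoxD. Over the 60 listed genes the median was 1.14%, 1.13% and 1.11%. It was nearer to that of protein-coding genes of at most 2 bins (1.21%, 1.197% and 1.18%) than to that of the Hox genes. Of the 60, 55 were below 1.5% in all 3 libraries, among them 4 below 1%. The share below 1.5% was 55.3% of all protein-coding genes and 64.8% of those of at most 2 bins. Below 1% it was 3.1% and 5.44%. The lowest in the DDD-seq control were Irx4 (0.765%, 0.884% and 1.12%) and Evx1, given above. The highest there were Meox2 (2.03%, 1.90% and 1.77%), a mesodermal gene of 8 bins, and Pax6 (1.92%, 1.74% and 1.60%), which is expressed in cerebellar granule cells. In this and the following lists the genes named are the extremes in the DDD-seq control. Genes upstream of Hox expression had a median of 1.21%, 1.22% and 1.27% over 16 genes. They ranged from Cdx2 (0.749%, 0.941% and 0.828%) and Cyp26c1 (0.912%, 1.33% and 1.04%), a retinoic acid-degrading enzyme gene, to Rara (1.56%, 1.50% and 1.59%), a retinoic acid receptor gene, and Ctcf (2.79%, 2.68% and 2.27%), which encodes an insulator protein.

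Genes for proteins that work with or on the Hox clusters had higher medians than the Hox genes, but length was not matched. Kmt2c overlaps 23 bins, Pbx3 21, Jarid2 20, Meis1 14 and Kdm6a 12, but Rbbp7 only 2. Of the 38 Hox genes, 33 overlap at most 2. The TALE homeodomain cofactors, which bind DNA together with Hox proteins, had a median of 1.69%, 1.49% and 1.61% over 9 genes. Meis1 had 3.39%, 3.10% and 3.13% and Pbx3 2.30%, 2.44% and 2.29%, whereas Pbx4 had 1.12%, 1.34% and 1.11% and Pbx2 1.15%, 1.35% and 0.830%. Polycomb genes had a median of 1.64%, 1.61% and 1.66% over 19 genes, from Cbx8 (1.13%, 1.11% and 1.04%) and Ring1 (1.16%, 0.905% and 1.0%) to Rbbp7 (3.16%, 4.3% and 3.10%) and Jarid2 (4.07%, 3.99% and 3.96%). Trithorax and H3K27 demethylase genes, whose products oppose Polycomb, had a median of 1.26%, 1.29% and 1.31% over 10 genes. This was near the median of all protein-coding genes (1.33%, 1.31% and 1.29%). Kdm6a, an X-linked demethylase gene, had 6.5%, 6.95% and 7.0% and Kmt2c 3.14%, 2.92% and 3.13%, while Kmt2b had 1.10%, 1.11% and 1.05% and Kdm6b 1.11%, 1.11% and 1.11%. No gene of the lists in this paragraph differed by 1.5-fold between the sleep-deprived sample and the control. Over all protein-coding genes the shares were 4.34% upwards and 4.28% downwards. With shares this small, an absence in short lists is no result about these genes.

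Granule cell genes had a median of 1.53%, 1.44% and 1.71% over 12 genes, from Zic2 (0.889%, 0.938% and 1.12%) and Zic1 (0.920%, 0.932% and 1.0%) to Kcnd2 (5.36%, 5.26% and 5.14%) and Etv1 (6.52%, 6.70% and 6.42%). A list of hindbrain and brainstem neuron genes, of which Barhl1 and Slc6a5 are also known from cerebellar cells, had a median of 1.10%, 1.19% and 1.14% over 11 genes, from Th (0.835%, 0.845% and 1.27%) and Fev (0.966%, 0.756% and 1.14%) to Barhl1 (1.34%, 1.2% and 1.29%) and Tph2 (1.51%, 1.49% and 1.38%). The medians of the Hox genes, 1.04%, 1.02% and 1.0%, were below those of both lists, but length was not matched. Among the granule cell genes named, Kcnd2 overlaps 52 bins and Etv1 10, whereas Zic1 and Zic2 overlap 2 each. Levels of 5hmC are a property of DNA and do not measure expression, so they are no check of the cell types in the tissue. In a tissue sample, fewer cells carrying 5hmC at a locus and less 5hmC per cell cannot be told apart.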

How the data were processed

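5hmC was measured in mouse cerebellum in 3 libraries, 1 per group, grouped by their labels. The authors deposited a fraction per library for bins of 10 kb, per the file headers. FastQC, Trimmomatic and Bismark were used, per the submitters' processing notes, and their versions are not given in the sources used here. These notes name the human build hg19, but the bins cover mouse chromosomes, and on each of 21 chromosomes the last bin ended 1.33 to 211.9 kb after the last gene of GRCm38.p6, so gene positions of that build were used. Both DDD-seq columns are headed "all", so runs or libraries may be pooled in them. Coverage, cytosine contexts and unmodified control DNA were not analysed here, so levels include any unconverted cytosine, and depth gives no precision.

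Fractions were multiplied by 100. A bin counted for a gene or cluster from 1 bp of overlap, and a gene's level was the mean over its bins. Of 264399 bins, 262974 had a value in all 3 libraries. Fold counts used the 21270 genes above 0 in all 3 libraries. Scripts, tested on simulated data, ran on Python 3.11.15 with matplotlib 3.10.9, pandas 2.3.3, numpy 2.4.6 and scipy 1.17.1. Members, lists and limits were chosen with earlier results of these data known. Named were the 2 highest and 2 lowest genes of each cluster, neighbourhood side and list, the extremes of each paralog class, end genes, and genes past 1.5-fold. The microRNA genes, Hoxc6 and both promoters were added after values were seen. Alternatives changed the overlap, span, flanks, average, zeros, scaling, limits and folds, and left out each cluster. Some items at these loci are not reported here.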

Additional observations from a re-analysis of the deposited data

How the results depend on the processing

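No paired analysis was possible because each group holds 1 library. Of 110 values recomputed under alternative settings, 88 stayed within 1 SE of the reported value or, for counts, within 1.5 times of it. No difference changed sign, and mean levels and counts cannot change sign. Some of the 88 were fixed in advance: no cluster or flank bin was listed at 0, and scaling left the DDD-seq control unchanged. The tally is therefore no measure of robustness. The exceptions to these limits follow, and their cause was not tested beyond what each setting changes by construction. With medians over bins, the DDD-seq control level over cluster bins was 1.04%, and the cluster minus flank difference was -0.211, -0.209 and -0.200 points in the DDD-seq control, sleep-deprived sample and ACE-seq control. Without HoxD the sleep-deprived level was 0.990% and the difference -0.190, -0.223 and -0.208 points, smaller but within 1 SE of the reported values. Flanks of 100 kb gave -0.283 ± 0.192, -0.253 ± 0.136 and -0.324 ± 0.230 points (SE over clusters). These were smaller than the reported values but within 1 SE of them, and each was under 2 SE in size. Flanks of 500 kb gave differences of -0.455 points for the DDD-seq control and -0.451 for the sleep-deprived sample. Flank bins with a protein-coding gene gave -0.713, -0.558 and -0.736 points. Below limits of 0.8% and 1.2% in all 3 libraries there were 1 and 24 Hox genes, against 1.15% and 15.7% of all protein-coding genes. With only the midpoint bin of each gene, 2 genes were higher by 1.5-fold in the sleep-deprived sample and 7 lower by ACE-seq. The latter count was 1 after scaling to the same autosomal median and 1 with 0.1 points added to both levels. The shares of all protein-coding genes with midpoint bins, scaling or added points were not computed. These counts therefore cannot be called high or low. At a ratio of 5 to 4, 3 genes were higher and 6 lower in the sleep-deprived sample, and 2 higher and 7 lower by ACE-seq, against 10.9%, 11.5%, 11.2% and 15.5% of all protein-coding genes. At 2-fold there were 0 genes in each direction, against 1.77%, 1.50%, 1.65% and 1.97%. With the depth of bins unknown, differences between genes of 1 bin have no error.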

Other observations

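The clusters also hold long noncoding RNA genes, which were looked up after the values were seen. Values are given for 5 of them. Hotair, transcribed from the HoxC cluster and known for its binding to Polycomb proteins, had 1.13% for the DDD-seq control, 0.756% for the sleep-deprived sample and 0.990% in the ACE-seq control. Hottip, beside Hoxa13 and known as an activator of distal HoxA genes, had 1.05%, 0.916% and 1.31%. Haglr, between Hoxd3 and Hoxd1, had 1.07%, 1.11% and 0.965% over 3 bins. Hoxb5os had 0.970%, 1.2% and 1.14% and Hoxa11os 1.02%, 0.893% and 0.947%. Hoxb5os has the bins and values of Hoxb6, and Hoxa11os those of Hoxa11. Hottip lies in a bin of Hoxa13, and Haglr overlaps bins of Hoxd3 and Hoxd1. The values of these genes are thus no separate measurements, whereas the bin of Hotair holds no listed Hox gene.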
